A study of Mus musculus with 4 samples.

Results

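The 10 genes described here are induced by the ERK pathway. Etv4 and Etv5 are ETS transcription factor genes. The others encode products that act back on the pathway. They are the Sprouty genes Spry1, Spry2 and Spry4, the Spred genes Spred1 and Spred2, and the phosphatase genes Dusp4, Dusp5 and Dusp6. The 10 genes were chosen by symbol, among probe sets annotated to exactly 1 gene. All 10 were found, with 12 of the 21789 such probe sets, and they are compared as 10 of 19938 genes. The samples were plasmacytoid dendritic cells (pDCs) sorted from the spleens of Flt3 KO mice (2 arrays) and WT mice (2 arrays), untreated at steady state. Flt3 is a receptor tyrosine kinase that dendritic cells and their precursors use to sense FLT3 ligand, and the genes were read as an output of such receptors. The labels call the samples of a genotype biological replicates. The labels do not state the knockout allele, strain, age and sex of the mice, the sorting markers or number of animals behind a sample. The p-values therefore rest on the spread between these samples, which the test pools in part across genes.

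A ligand-bound receptor tyrosine kinase recruits adaptors that load Ras with GTP. Ras then activates Raf, Raf activates MEK, and MEK activates the kinase ERK. ERK output includes its own brakes. Sprouty and Spred proteins dampen the step from receptor to Raf, and several DUSP phosphatases remove the activating phosphates from ERK. Etv4 and Etv5 encode closely related ETS factors of the PEA3 group whose transcription rises with ERK activity, in part because active ERK relieves repression by Capicua (gene Cic). In many cell types the mRNA of these genes falls within hours when the pathway is inhibited, which is why they are used as a readout of it.

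The promoters below show the members that passed the test (Etv5 and Spred2), for which the searched motifs were not found, and the members whose window held a motif of a known ERK-linked regulator (Spry2, Dusp5 and Dusp6). Each is the 250 bases before the gene start in RefSeq, build GRCm38.p6, written 5′ to 3′ on the gene's strand. They lie at chr16:22439571-22439820 (minus strand, Etv5), chr11:19924192-19924441 (plus strand, Spred2), chr14:105896820-105897069 (minus strand, Spry2), chr19:53528895-53529144 (plus strand, Dusp5) and chr10:99262981-99263230 (plus strand, Dusp6). Capitals mark the Capicua octamer in Spry2 and Dusp6, and a pair of adjoining CArG boxes, the motif of serum response factor, in Dusp5.
Etv5: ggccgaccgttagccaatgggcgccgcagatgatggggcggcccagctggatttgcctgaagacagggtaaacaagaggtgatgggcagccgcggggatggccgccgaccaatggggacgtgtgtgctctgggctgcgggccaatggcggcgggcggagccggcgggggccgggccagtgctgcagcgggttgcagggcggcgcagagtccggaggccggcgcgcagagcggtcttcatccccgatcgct
Spred2: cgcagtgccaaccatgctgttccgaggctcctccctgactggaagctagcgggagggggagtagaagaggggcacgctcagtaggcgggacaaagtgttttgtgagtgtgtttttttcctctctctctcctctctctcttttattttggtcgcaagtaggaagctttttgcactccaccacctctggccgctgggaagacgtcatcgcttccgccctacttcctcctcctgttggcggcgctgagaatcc
Spry2: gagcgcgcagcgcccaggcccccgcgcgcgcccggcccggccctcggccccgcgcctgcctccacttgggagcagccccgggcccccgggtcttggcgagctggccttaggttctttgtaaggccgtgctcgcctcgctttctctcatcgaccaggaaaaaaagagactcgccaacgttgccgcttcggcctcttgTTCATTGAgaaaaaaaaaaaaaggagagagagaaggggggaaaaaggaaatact
Dusp5: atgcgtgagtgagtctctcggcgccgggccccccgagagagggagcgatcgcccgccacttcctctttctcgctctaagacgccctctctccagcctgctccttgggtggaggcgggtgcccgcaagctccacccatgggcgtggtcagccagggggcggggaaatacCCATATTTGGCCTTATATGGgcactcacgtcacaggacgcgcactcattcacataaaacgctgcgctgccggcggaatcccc
Dusp6: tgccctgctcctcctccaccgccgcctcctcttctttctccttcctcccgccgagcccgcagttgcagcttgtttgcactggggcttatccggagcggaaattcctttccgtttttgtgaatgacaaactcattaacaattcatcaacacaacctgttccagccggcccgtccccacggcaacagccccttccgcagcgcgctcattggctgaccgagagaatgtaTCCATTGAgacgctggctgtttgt

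RefSeq windows of 7 members were searched, 8 windows in all, since Etv5 has 2 annotated starts. No window of Etv4, Spry4 or Dusp4 was among them. Windows on 1 chromosome were left out for the members but kept in the count over all windows. Both strands were searched for the Capicua octamer (TGAATGAA, TGAATGGA, TCAATGAA or TCAATGGA), the AP-1 site TGANTCA and the CArG box. CCGGAA, 1 form of the ETS site, was searched for too, and other sites with the ETS core GGAA were not. None of these motifs overlapped another in these windows. The Capicua octamer was present in 2 of the 8 windows and in 3.19% of all 32851 windows of the same length, and the CArG box in 1 of 8 and in 1.47% of all. CCGGAA (12% of all windows) and TGANTCA (6.75%) were in none of the 8. Forms of the Capicua octamer with G in place of the last A were not searched for. Such letters occur in the second Etv5 window, which is not printed above, and in the Dusp5 window. The counts therefore do not show that Etv5 lacks sites like the Capicua octamer. A match describes the letters of a window and is not a binding site.

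In Flt3 KO pDCs the mRNA signal of Etv5 and Spred2 fell, and the other 8 genes did not pass the test. Etv5 fell by 0.74 on the log2 scale and Spred2 by 0.42. Dusp6 and the Sprouty genes, the other common readouts of ERK, did not change past the threshold. The test was limma on log2 of the deposited intensity over all 19938 genes, with a Benjamini-Hochberg adjusted p under 0.05 as the threshold, and a difference is Flt3 KO minus WT. The 2 calls were both lower, and 1.31% of all genes were called lower, with 1.08% called higher. Unadjusted p-values under 0.05 were found for 3 members, Spry1 and the called genes, and for 17.1% of all genes. Groups did not overlap, in the lower direction, for 3 of the 10 genes (Etv5, Spred2 and Spry1), and for 25.3% of all genes, so that count is near the background. The median difference of the 10 genes was −0.022, beside −0.001 over all genes, with 6 below 0 and 4 above. For the 8 genes that were not called, every limma 95% interval lay between −0.56 and 0.66. On the array's scale that is short of a 2-fold difference in either direction. These intervals use variances that limma shares between genes (5.2 prior against 2 residual degrees of freedom), so the 4 arrays alone do not set this bound. Falls as large as that of Spred2 are not left out, since the Spry1 interval reached −0.56. For 3 of the 8 genes, Etv4, Spry4 and Spred1, all arrays read below the all-gene median of 5.89. How far these 3 stood above background is unknown, so the bound may not carry over to their mRNA.

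**Figure D1:**
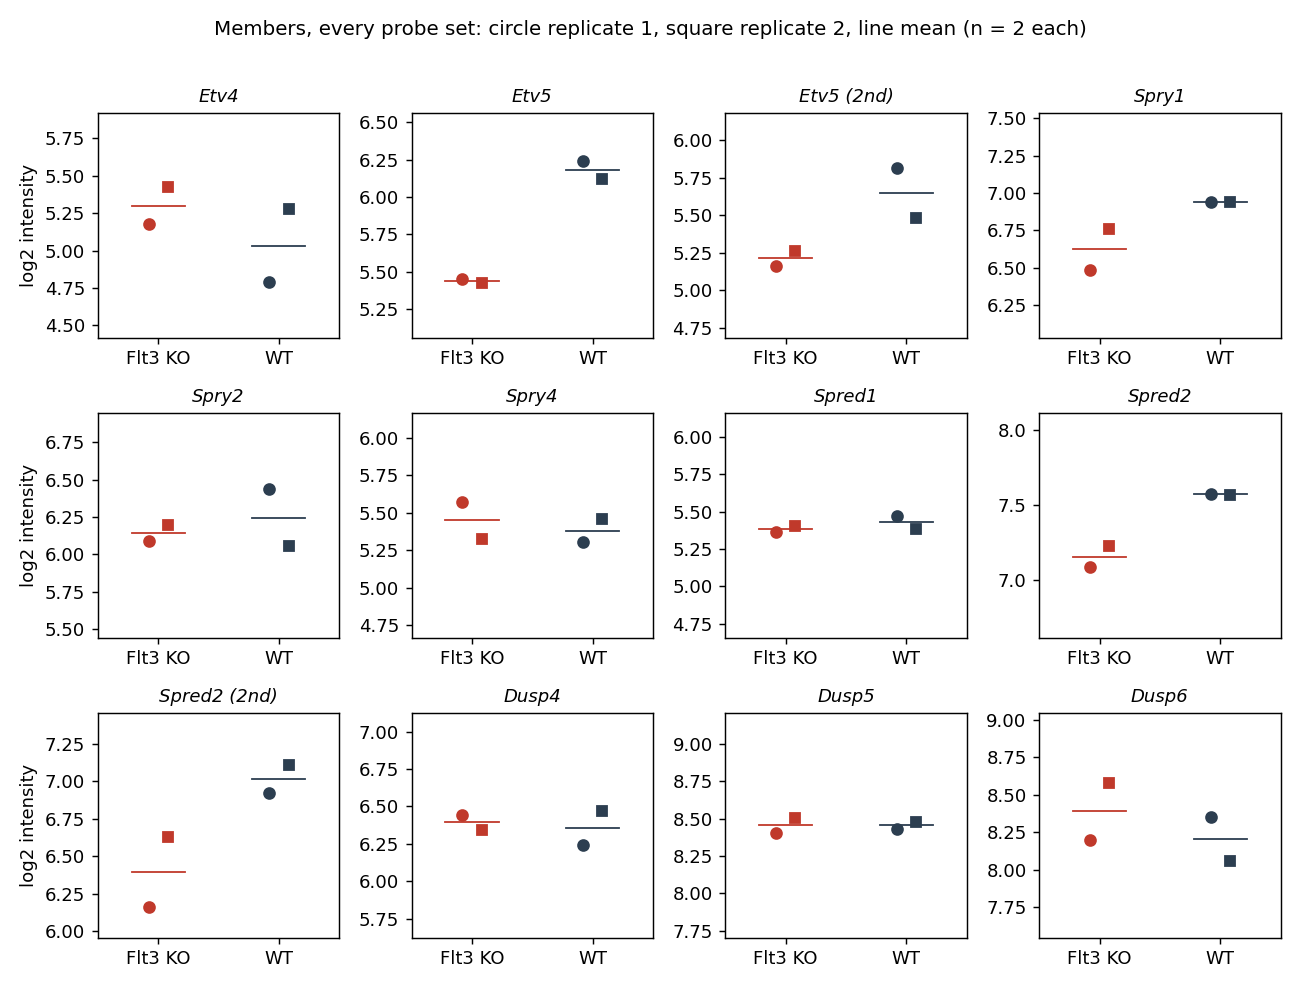
Log2 intensity (y axis, the same span in every panel) of each of the 12 probe sets in Flt3 KO and WT arrays; circles are replicate 1, squares replicate 2, lines means (n = 2 each), and "2nd" marks the dimmer probe set of a gene. In both Etv5 and both Spred2 panels, and in Spry1, the Flt3 KO points lie below the WT points; in the other 7 panels the groups overlap.

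Among the transcription factors, Etv5 had the largest difference of the 10 genes. Its brighter probe set read 5.46 and 5.43 in Flt3 KO pDCs, against 6.24 and 6.12 in WT pDCs (log2 intensity). Both Flt3 KO arrays lay far below both WT arrays, and the replicates of each genotype lay close together. The difference was −0.74 (SE 0.091, 95% interval −0.95 to −0.53), or 1.67-fold lower, with a limma adjusted p of 0.0113. Only 0.176% of all genes had a more negative difference. A second probe set, annotated to the same 3 transcript accessions, read 5.16 and 5.26 in Flt3 KO pDCs, against 5.82 and 5.48 in WT pDCs. It was lower in both Flt3 KO arrays too, with a difference of −0.43 (SE 0.13). It was not called when all single-gene probe sets, of which 2.34% were called, were tested (limma adjusted p = 0.149). Whether this probe set reads the same locus as the brighter one could not be checked without probe sequences. The Flt3 KO values were under the all-gene median of 5.89; no detection call was used, so how far they stood above background is unknown. With any 1 array left out the Etv5 difference stayed between −0.80 and −0.68, and its adjusted p ranged from 0.104 to 0.283.

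Etv4, the sister gene of Etv5, was not called. It read 5.18 and 5.42 in Flt3 KO pDCs, against 4.79 and 5.28 in WT pDCs. The groups overlapped, all 4 values lay below 5.89, and the WT replicates stood further apart than the group means. The difference was 0.27 (SE 0.17, 95% interval −0.13 to 0.66, limma adjusted p = 0.477). It moved with every array left out, to 0.39 without Flt3 KO replicate 1, 0.15 without Flt3 KO replicate 2, 0.024 without WT replicate 1 and 0.51 without WT replicate 2. Etv1, the remaining PEA3-group gene, differed by −0.085 (SE 0.081, adjusted p = 0.654).

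Spred2 encodes a membrane-bound protein that, with Spred1, brings the Ras GTPase activator neurofibromin to the membrane and so limits Ras. Its brighter probe set read 7.09 and 7.22 in Flt3 KO pDCs, against 7.58 and 7.57 in WT pDCs. The 2 WT arrays were almost identical and both Flt3 KO arrays lay below them. The difference was −0.42 (SE 0.078, 95% interval −0.60 to −0.23), or 1.34-fold lower, with a limma adjusted p of 0.0464, close to the threshold. The second Spred2 probe set read 6.16 and 6.63 in Flt3 KO pDCs, against 6.92 and 7.11 in WT pDCs. Its difference was larger, −0.62, and its spread wider (SE 0.15, limma adjusted p = 0.0992 over all single-gene probe sets). All 4 pairings of a Flt3 KO with a WT array gave a lower Flt3 KO value in both probe sets, from −0.49 to −0.35 in the brighter and from −0.95 to −0.29 in the dimmer. With both probe sets averaged the difference was −0.52 and the adjusted p 0.067, without the intensity trend the adjusted p was 0.107, and with any 1 array left out it ranged from 0.168 to 0.369.

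Spred1, which shares this function, read 5.37 and 5.41 in Flt3 KO pDCs, against 5.47 and 5.39 in WT pDCs. The groups overlapped at a dim level, below 5.89 on every array. The difference was −0.043 (SE 0.092, 95% interval −0.26 to 0.17, limma adjusted p = 0.867). Spred3, the third Spred gene, differed by −0.030 (SE 0.093, adjusted p = 0.913). Whether Spred2 differs from Spred1 in its response was not tested.

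The Sprouty genes encode cytoplasmic inhibitors that are recruited to activated receptors. Spry1 read 6.49 and 6.76 in Flt3 KO pDCs, against 6.94 and 6.94 in WT pDCs. Both Flt3 KO arrays were lower, but they stood apart from each other by nearly as much as the genotypes did. The difference of −0.32 (SE 0.10, 95% interval −0.56 to −0.075) did not pass after adjustment (limma adjusted p = 0.183), and it was −0.18 when Flt3 KO replicate 1 was left out and −0.46 when replicate 2 was. Spry2 read 6.09 and 6.20 in Flt3 KO pDCs, against 6.43 and 6.06 in WT pDCs. The groups overlapped, with WT replicate 1 the highest array, and the difference was −0.10 (SE 0.13, 95% interval −0.41 to 0.21, limma adjusted p = 0.754). Spry4 read 5.58 and 5.32 in Flt3 KO pDCs, against 5.30 and 5.46 in WT pDCs, with a difference of 0.069 (SE 0.12, 95% interval −0.21 to 0.35, limma adjusted p = 0.825). Spry4 was dim and overlapping, and the sign of the Spry2 and Spry4 differences turned when WT replicate 1 was left out, and that of Spry4 also when Flt3 KO replicate 1 was. Spry3 was dimmer still, at 3.82 and 3.55 in Flt3 KO pDCs, against 3.76 and 3.74 in WT pDCs (difference −0.068, adjusted p = 0.821).

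**Figure D2:**
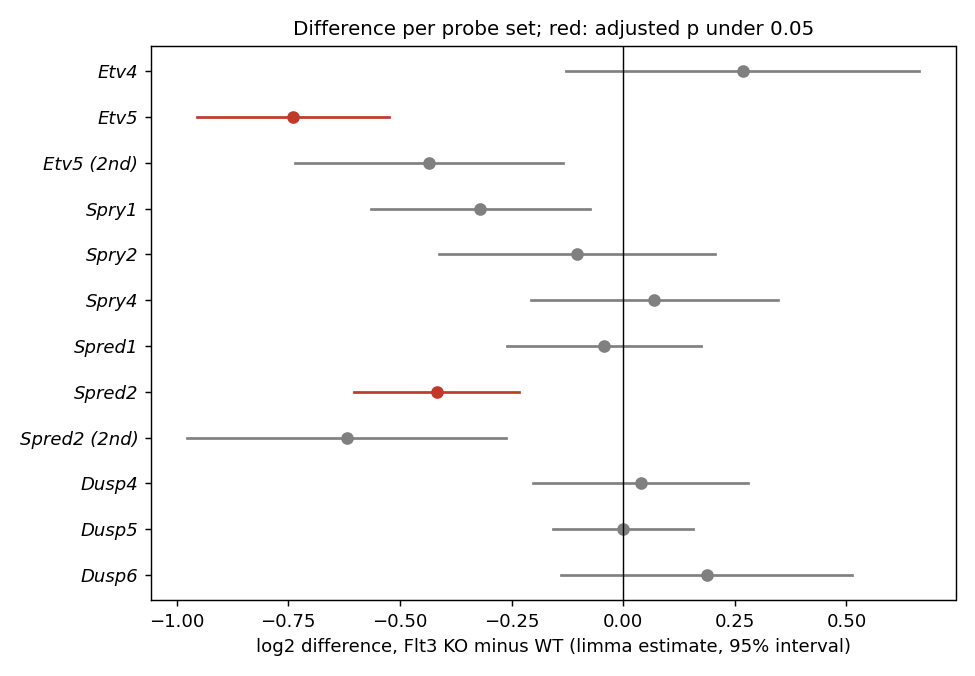
Log2 difference, Flt3 KO minus WT (x axis), of every probe set of the 10 genes, with limma's 95% interval from the fit over all single-gene probe sets; red marks an adjusted p under 0.05. The bright probe sets of Etv5 (−0.74) and Spred2 (−0.42) are red; the intervals of their second probe sets and of Spry1 also lie below 0 without passing the adjusted threshold, and the other 7 cross 0.

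The Dusp members encode phosphatases that act on MAP kinases, Dusp4 and Dusp5 in the nucleus and Dusp6 on ERK in the cytoplasm. Dusp5 had the smallest standard error of the 10 genes. It read 8.40 and 8.50 in Flt3 KO pDCs, against 8.43 and 8.48 in WT pDCs, so the WT values lay inside the Flt3 KO range. The difference was −0.0010 (SE 0.066, 95% interval −0.16 to 0.16, limma adjusted p = 0.997). Dusp4 read 6.44 and 6.34 in Flt3 KO pDCs, against 6.24 and 6.47 in WT pDCs, again overlapping, with a difference of 0.039 (SE 0.10, 95% interval −0.20 to 0.28, limma adjusted p = 0.896).

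Dusp6, in whose window the Capicua octamer was found, read 8.20 and 8.58 in Flt3 KO pDCs, against 8.35 and 8.05 in WT pDCs. The replicates of both genotypes stood far apart and the groups overlapped. The difference was 0.19 (SE 0.14, 95% interval −0.14 to 0.52, limma adjusted p = 0.555), and it was −0.0010 when Flt3 KO replicate 2 was left out and 0.38 when replicate 1 was. Flt3 KO replicate 2 and WT replicate 1, the higher Dusp6 array of each genotype, also had the higher summed intensity of 20 measured monocyte and macrophage markers in its genotype. That sum was 6551 in Flt3 KO replicate 1 and 8607 in Flt3 KO replicate 2, against 6040 in WT replicate 1 and 5400 in WT replicate 2. Between genotypes the order differed, since Flt3 KO replicate 1 had a higher sum than WT replicate 1 but a lower Dusp6 value. The part of the marker sum in the Dusp6 values was not tested.

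Relatives of the DUSP members did change, in both directions. Dusp7, the gene of another cytoplasmic ERK phosphatase, read 7.42 and 7.49 in Flt3 KO pDCs, against 7.81 and 7.81 in WT pDCs, and fell by 0.36 (SE 0.069, limma adjusted p = 0.0487, at the edge of the threshold). That call was lost under quantile normalization (adjusted p = 0.057), with the replicate block (0.0797) and without the intensity trend (0.117). Dusp1, the gene of a nuclear phosphatase that is induced by stress as well as by ERK, read 11.40 and 11.87 in Flt3 KO pDCs, against 10.84 and 10.93 in WT pDCs. It rose by 0.75 (SE 0.13, limma adjusted p = 0.0378, 0.0654 with robust variance and 0.118 without the trend), and Flt3 KO replicate 2 was the highest array here as in the macrophage marker sum. Over the 11 relatives from the Etv, Spry, Spred and Dusp families, 1 rose, 1 fell and 9 did not pass, where 2.39% of all genes were called. Of the 11, 5 had an unadjusted p under 0.05, where 17.1% of all genes had, and the median difference was −0.048.

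The Flt3 and pDC marker signals went with the labels. Flt3 fell by 2.21 (SE 0.066, limma adjusted p = 7.43e-05), at 8.46 and 8.61 in Flt3 KO pDCs, against 10.71 and 10.77 in WT pDCs. Those Flt3 KO values still lay above the upper quartile of all genes on the same arrays, 7.642 and 7.675. The pDC markers Siglech, Bst2 and Tcf4 lay between 12.15 and 12.93 on every array. Of the conventional dendritic cell markers, Cd209a (10.88 to 11.28) and Clec9a (10.69 to 10.86) also read high on every array, and Xcr1 (4.43 to 4.67) read low. Of 14 measured pDC markers 7 fell and all 14 differences lay below 0, with a median of −0.24; of 20 monocyte and macrophage markers 5 rose and 17 differences lay above 0, with a median of 0.32 (0.093 when Flt3 KO replicate 2 was left out and 0.54 when replicate 1 was). The macrophage-list genes that rose were Cd14 (1.08), Cx3cr1 (1.03), Fn1 (0.88), Ccr2 (0.70) and Lyz2 (0.51). The tissue macrophage genes C1qa, C1qb and C1qc, at 8.06 to 10.05 in Flt3 KO pDCs and 7.84 to 9.32 in WT pDCs, differed by 0.34 to 0.50 without passing. Of 14 conventional dendritic cell markers, Dpp4 rose by 0.29 (adjusted p = 0.0487), Flt3 itself fell and 12 did not pass, with 7 at an unadjusted p under 0.05 and a median of 0.048. No marker of any list was at 0, and none of the measured B cell (9), T cell (10), NK cell (8), neutrophil (10) or erythroid and platelet (6) markers passed in limma; in that order, 3, 4, 0, 3 and 1 had an unadjusted p under 0.05. In sorted bulk samples, fewer cells of a type and less RNA per cell cannot be told apart, and the part of these marker shifts in the results above and below was not tested.

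The rest of the pathway was described through lists by role. Outside the 10 members, 102 of 113 listed genes were measured, and 12 passed, 7 higher and 5 lower with Flt3 counted. Without Flt3, 11 of 101 passed (10.9%), against 2.39% of all genes in either direction, and the median of the 102 was 0.028. No test was made of these lists. They were chosen with earlier results of these data known, so their share called is not a test of the pathway. They may also differ from all genes in how brightly they read. Of the 9969 genes above the median, tested alone, 724 were called. Without the intensity trend in the variance only Flt3, Rasgrp4 and Epha4 of these 12 were called, and with 1 array left out at most 3 were.

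**Figure D3:**
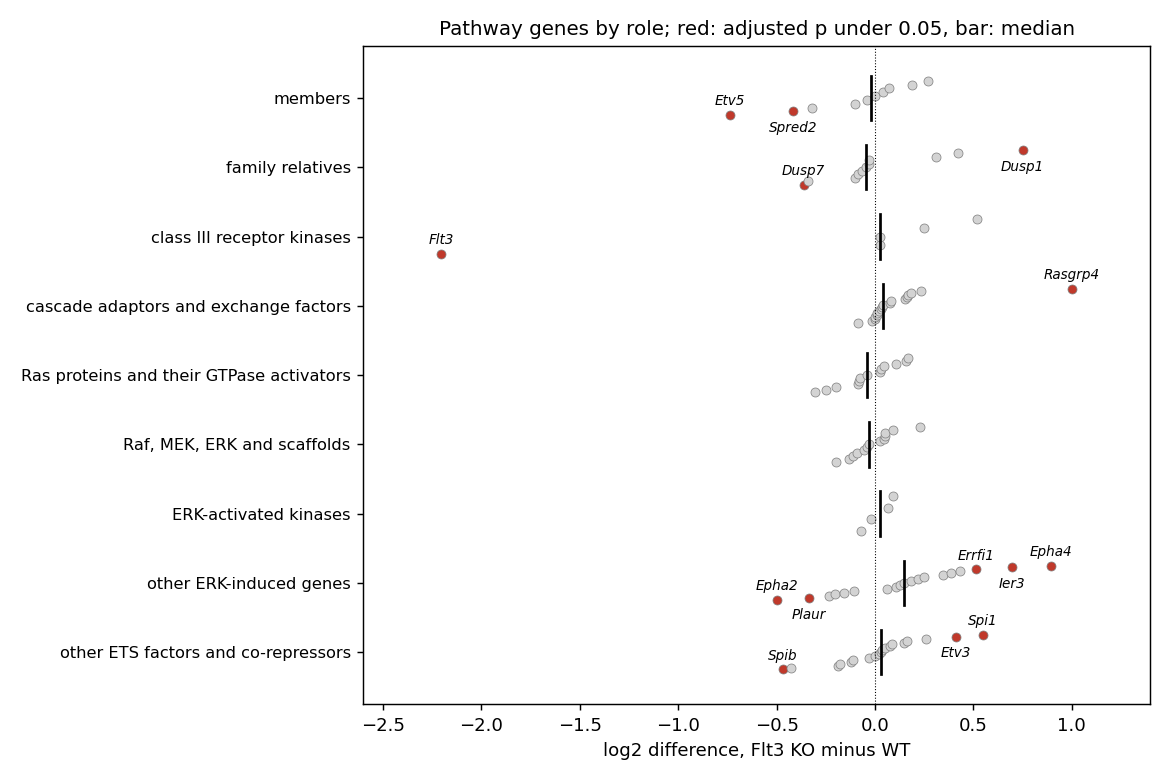
Log2 difference, Flt3 KO minus WT (x axis), of each measured gene by role; red points passed an adjusted p of 0.05 and are named, and bars are list medians. Apart from Flt3 (−2.21) and Rasgrp4 (1.00), the adaptors, Ras, Raf, MEK and scaffold genes lie between −0.30 and 0.24, and the red points lie among the members, their relatives, other ERK-induced genes and ETS factors, on both sides of 0.

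The signalling core held few changes. Of 18 adaptors and exchange factors 1 rose, with 5 at an unadjusted p under 0.05. The gene that rose was Rasgrp4, which encodes an exchange factor that loads Ras. It read 9.04 and 9.29 in Flt3 KO pDCs, against 8.17 and 8.16 in WT pDCs, a difference of 1.00 (SE 0.087, limma adjusted p = 0.00389). None of the 13 measured Ras proteins and GTPase activators passed in limma, with 5 at an unadjusted p under 0.05; the lowest p-values were those of the activator genes Rasal3 (−0.20, adjusted p = 0.125) and Rasa2 (−0.30, adjusted p = 0.127). None of 13 Raf, MEK and scaffold genes passed, with 1 at an unadjusted p under 0.05, and the lowest p-values were those of the Raf kinase gene Araf (−0.20, adjusted p = 0.149) and the scaffold gene Ksr1 (0.23, adjusted p = 0.302). The MEK genes Map2k1 and Map2k2 differed by 0.049 and −0.090. None of 4 measured ERK-activated kinase genes passed, with 0 at an unadjusted p under 0.05; the lowest p-values were those of Mknk2 (0.091) and Rps6ka3 (−0.071). Of the other class III receptor kinase genes, Kit differed by 0.25 (adjusted p = 0.0801) and Csf1r by 0.52 (adjusted p = 0.157), and Pdgfra and Pdgfrb by 0.027 and 0.025.

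Other genes that ERK induces moved in both directions. Of 19 measured, 3 rose, 2 fell and 14 did not pass, where 2.39% of all genes were called; 11 had an unadjusted p under 0.05, where 17.1% of all genes had, and the median was 0.15. The ephrin receptor genes went opposite ways: Epha2 read 9.66 and 9.78 in Flt3 KO pDCs, against 10.26 and 10.18 in WT pDCs, and fell by 0.50 (SE 0.061, limma adjusted p = 0.0113), whereas Epha4 read 6.35 and 6.57 in Flt3 KO pDCs, against 5.56 and 5.58 in WT pDCs, and rose by 0.89 (SE 0.10, limma adjusted p = 0.0087). Plaur, the urokinase receptor gene, fell by 0.34. Ier3, an immediate early gene, rose by 0.69 and Errfi1, which encodes a feedback inhibitor of EGF receptors, by 0.51. The 14 that did not pass ranged from Ccnd1 at −0.24 (adjusted p = 0.0895) to Myc at 0.43 (adjusted p = 0.102), and held the early response genes Egr1 (0.15), Fos (0.13), Egr3 (0.22) and Ier2 (0.35); these 6 are named after their values were seen.

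Among 19 other ETS factors and co-repressors 2 rose and 1 fell, where 2.39% of all genes were called. Of the 19, 5 had an unadjusted p under 0.05, where 17.1% of all genes had. Spi1, the gene of the myeloid factor PU.1, read 9.28 and 9.46 in Flt3 KO pDCs, against 8.89 and 8.76 in WT pDCs, and rose by 0.55 (SE 0.081, limma adjusted p = 0.0206). Etv3, which encodes an ETS repressor, rose by 0.41. Spib, the gene of a PU.1 relative that pDCs depend on, read 10.90 and 10.75 in Flt3 KO pDCs, against 11.28 and 11.31 in WT pDCs, and fell by 0.47 (SE 0.057, limma adjusted p = 0.0113). Cic, the Capicua gene, named after its value was seen, read 9.73 and 9.70 in Flt3 KO pDCs, against 9.72 and 9.64 in WT pDCs, a difference of 0.034 (SE 0.055, adjusted p = 0.811). The rises of Spi1 and Rasgrp4 stood beside those of 5 of 20 monocyte and macrophage markers, of which 15 did not pass. The fall of Spib stood beside lower pDC markers, a list to which Spib itself belongs.

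**Figure D4:**
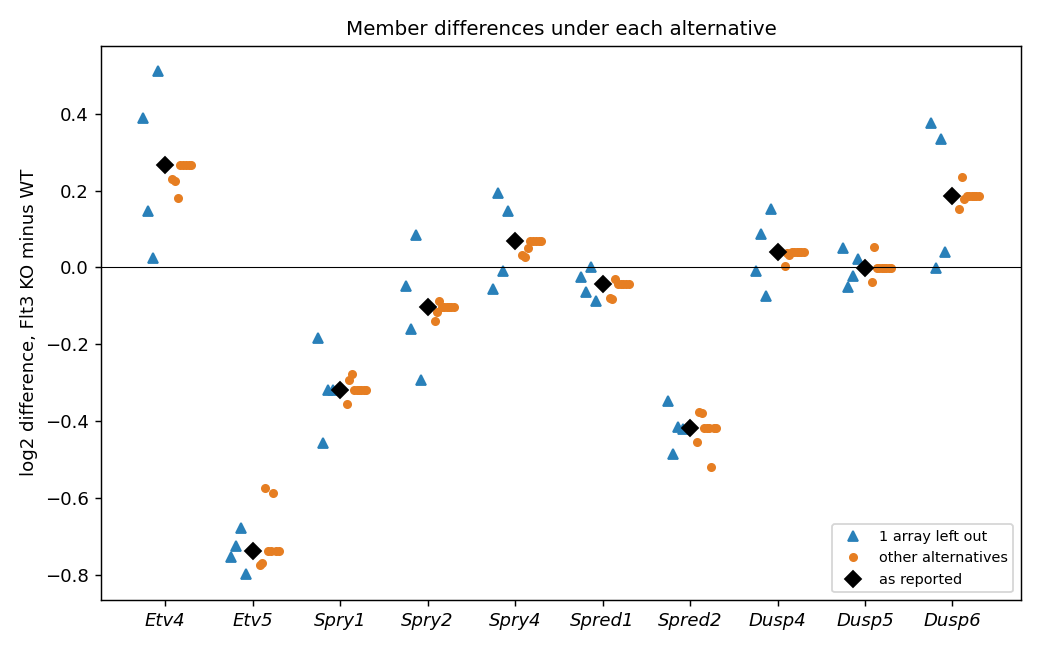
Log2 difference, Flt3 KO minus WT (y axis), of each of the 10 genes as reported (diamond), with 1 array left out (triangles) and under the other alternatives (circles). Etv5, Spred2 and Spry1 stay below 0 throughout; the spread of Etv4 and Dusp6, from 0.024 to 0.51 and from −0.0010 to 0.38, comes from the fits with 1 array left out.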

How the data were processed

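Gene expression was measured on whole-transcript GeneChip arrays, 1 per sample. The deposited table gives the authors' linear intensity for 30177 probe sets; how it was background-corrected, summarised and scaled is not stated in the labels. The platform annotation named 1 gene for 21789 probe sets, several for 1621 and none for 6767, and only the first were used. For the 999 genes with more than 1 such probe set, the brightest over the 4 arrays was kept, giving 19938 genes; second probe sets came from a fit of all 21789. Intensities were converted to log2 with no added constant or filter, and Flt3 KO was set against WT in limma 3.58.1 under R 4.3.3 (lmFit, eBayes with an intensity trend, 2 residual degrees of freedom, no covariate), adjusting by Benjamini-Hochberg over all genes. The fit was tested on simulated data. No detection call was used, and the number of arrays limits the precision; an exact permutation test of 2 against 2 cannot go below 0.3333.

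The members and lists were chosen with earlier results of these data known. Named genes are the members, Flt3, Etv1, Spry3, Spred3, pathway list genes past the threshold (at most 6 a direction) or, where none passed, the 2 with the lowest p. Marker genes, MEK genes, other class III receptor genes and Cic were named outside this rule, after their values were seen. Alternatives were median centring, quantile normalization, 16 added to intensities, dim genes left out, no trend, robust variance, averaged probe sets, all probe sets, each array left out, and a replicate block. Deviations of same-numbered arrays correlated across genes at −0.017, so the numbers were not taken as pairs. Promoter sequences are RefSeq's (GRCm38.p6).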

Additional observations from a re-analysis of the deposited data

How the results depend on the processing

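The Etv5, Spred2 and Spry1 differences kept their sign under every alternative that tested them. The count of called members, 2, was 1 with dim genes left out (6 members tested, Etv5 not among them), 1 without the intensity trend (Spred2 lost, adjusted p = 0.107), 1 with averaged probe sets (Spred2 lost) and 1 with the replicate block (Spred2 lost, adjusted p = 0.0656; among other named genes the block ended the Dusp7 call only); it was 0 to 0 with 1 array left out, where limma had 1 residual degree of freedom and 2 to 4 members had an unadjusted p under 0.05. Over all genes 476 were called, 215 higher and 261 lower, or 217 higher and 443 lower with arrays centred on their medians. There were 724 with dim genes left out, 108 without the trend, and 0 to 54 with 1 array left out (0 without WT replicate 1 or WT replicate 2, 2 with Flt3 KO replicate 2 left out and 54 with Flt3 KO replicate 1 left out, against 2068 to 2689 at an unadjusted p under 0.05). The 12 called genes of the other pathway lists became 3 without the trend and 0 to 3 with 1 array left out. With 1 array left out, differences that changed sign were Spry2 (−0.29 to 0.085), Spry4 (−0.056 to 0.20), Dusp4 (−0.074 to 0.15), Dusp5 (−0.052 to 0.050) and Dusp6 (−0.0010 to 0.38); Dusp5 was also 0.052 under quantile normalization. The calls of the 12 other named pathway genes were lost in 44 of 48 fits with 1 array left out and in 12 of 107 other fits, with no sign turned. Centring moved the median of all genes to −0.037. For the calls that were lost, the cause was not tested beyond the fewer samples or genes in those fits.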

Other observations

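By the distance between 4-array profiles, each gene taken relative to its own WT mean on the log2 scale, the genes closest to Etv5 were Tubgcp5, Lynx1, Rpgrip1, Sh2d1b1 and Ltb, with distances of 0.046 to 0.084 and differences of −0.78 to −0.72. The genes closest to Spred2 were Tti2, Ifi208, Trim12c, Txlnb and Cd36, with distances of 0.020 to 0.040 and differences of −0.43 to −0.41. With 4 arrays, such likeness says mainly that the differences are of one size.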
